A study of Mus musculus with 12 samples.

Results

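Cholesterol synthesis was followed through 7 genes known as targets of SREBP2 (Hmgcs1, Idi1, Fdft1, Sqle, Lss, Cyp51 and Insig1), chosen by symbol from the 23893 genes of a raw count table. Rows were found for 6 of the 7, and Hmgcs1 was not analysed here. Of the 6, 5 encode enzymes of the pathway and Insig1 encodes a regulator of it. None is an uptake receptor, so uptake was read from 11 other genes. The libraries came from 12 mouse cortical neuron cultures (E13.5 to E15.5, strain C57BL6), with n = 3 in each of 4 groups. All cultures are described as Top1 fl/fl, meaning that both copies of Top1, the gene of topoisomerase 1, carry a loxP-flanked exon, although the labels call the control genotype wild-type. WT-Veh and WT-Topot cultures received a tdTomato lentivirus at day in vitro (DIV) 3, and Top1 cKO-Veh and Top1 cKO-Topot cultures one that adds CRE. Both viruses use the CaMKIIα promoter, which restricts expression to neurons, and reached about 85 to 90% of cells, so non-neuronal cells and a minority of neurons keep Top1 in the cKO cultures. At DIV 15, Topot cultures were given 300 nM topotecan, a TOP1 inhibitor, in 0.003% DMSO and Veh cultures 0.003% DMSO alone, and all were harvested 3 days later.

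Cells make cholesterol from acetyl-CoA through mevalonate, squalene and lanosterol. SREBP2, encoded by Srebf2, is held in the endoplasmic reticulum by INSIG proteins when sterols are plentiful. When sterols fall, SCAP carries SREBP2 to the Golgi, where it is cut into a transcription factor that turns on the enzymes of this pathway and Insig1. In the brain, which takes up little cholesterol from the blood, both neurons and astrocytes make the sterol, and astrocytes pass it on in particles that carry APOE.

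All 6 genes are short: in the GENCODE vM1 annotation of NCBIM37, the assembly of mm9, none spans more than 32.6 kb. Idi1 lies at chr13:8884852-8891641 (+ strand, 6.79 kb), Sqle at chr15:59146632-59162747 (+ strand, 16.1 kb), Cyp51 at chr5:4081145-4104746 (- strand, 23.6 kb) and Insig1 at chr5:28397952-28405201 (+ strand, 7.25 kb). Fdft1 lies at chr14:63763990-63796630 (- strand, 32.6 kb), where it shares 769 bases with Ctsb on the other strand. Lss lies at chr10:75994333-76019883 (+ strand, 25.6 kb), where 11268 bases are shared with 4930483K19Rik on the other strand. Whether counting used strand is not given, so reads of the shared bases cannot be assigned. Levels are given in CPM, the count of a gene scaled to the library's total by edgeR's TMM method, and a gene was called when its FDR, the p-value adjusted over all genes, was under 0.01. The neighbour Ctsb, a lysosomal protease gene, had 495 to 843 CPM and did not pass the test in any of the comparisons with WT-Veh (log2 fold changes of -0.09 for WT-Topot, -0.13 for Top1 cKO-Veh and -0.19 for Top1 cKO-Topot). 4930483K19Rik had at most 4.61 CPM in any library. Idi2, the close relative of Idi1, had at most 0.58 CPM.

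The promoters of 4 of the 6 genes were in the RefSeq promoter table used (GRCm38.p6), read over the 250 bases before the gene's start. Those of Cyp51 and Insig1, the genes that fell in WT-Topot cells, and of Lss, which tracked the others least, are shown 5′ to 3′ on the gene's strand. They lie at chr5:4104698-4104947 (- strand), chr5:28071162-28071411 (+ strand) and chr10:76531355-76531604 (+ strand). Capitals mark matches on either strand to the NF-Y box, CCAAT, and, as the other motif searched, to the GC box, which is spelled GGGCGG, motifs of factors that act beside SREBPs at sterol genes.
Cyp51: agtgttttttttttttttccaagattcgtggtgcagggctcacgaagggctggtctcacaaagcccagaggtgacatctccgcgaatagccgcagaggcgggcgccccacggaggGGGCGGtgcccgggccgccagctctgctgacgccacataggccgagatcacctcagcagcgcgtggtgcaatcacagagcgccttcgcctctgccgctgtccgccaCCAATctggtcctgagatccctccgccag
Insig1: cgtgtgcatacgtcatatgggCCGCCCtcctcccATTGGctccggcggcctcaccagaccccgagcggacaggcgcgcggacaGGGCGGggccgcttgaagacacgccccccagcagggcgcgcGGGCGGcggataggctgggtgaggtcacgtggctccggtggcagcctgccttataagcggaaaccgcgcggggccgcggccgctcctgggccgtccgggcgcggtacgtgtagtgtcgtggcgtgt
Lss: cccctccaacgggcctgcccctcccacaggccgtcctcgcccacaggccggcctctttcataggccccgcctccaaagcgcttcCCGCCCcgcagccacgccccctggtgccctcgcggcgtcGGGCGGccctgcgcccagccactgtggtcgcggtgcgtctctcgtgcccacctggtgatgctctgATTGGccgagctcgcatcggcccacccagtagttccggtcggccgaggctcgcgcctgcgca
Both boxes were present in all 4 promoters, Idi1 included, and the NF-Y box was found in 34.5% and the GC box in 32.9% of 27025 mouse promoters of the same length. These shares take 1 promoter per gene, the first listed. Taken likewise for the 16 synthesis genes in the table, Insig1 included, 14 held the NF-Y box and 15 the GC box, and 15 and 15 held them in any listed promoter. The sterol response element core TCACNCCA was in 3.58% of all promoters and in 1 of the 16, that of Sc4mol (now named Msmo1), and in none of the 4. The E-box CACGTG was in 6.05% of all promoters, in 3 of the 16 (4 in any listed promoter) and, among the 4, in that of Insig1. Each motif was searched in the given spelling only, so other forms of the sterol response element were not looked for in these promoters. A match is a description of the letters in this window, and binding was not measured.

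The libraries held 1730164 to 4583777 counts (median 2543273). Top1 was at 117.0 to 163.5 CPM without CRE and at 27.1 to 44.0 CPM with it (log2 fold change of Top1 cKO-Veh against WT-Veh -1.98 ± 0.23 SE, FDR = 0.00119, edgeR's quasi-likelihood test), and the 6 libraries with CRE lay below the 6 without. The 12 neuron markers summed to 8759 to 11420 CPM, with Syp, a synaptic vesicle gene, at 1723 to 2321 CPM. Of the other cell types, the 12 astrocyte markers summed to 1183 to 6399 CPM (Slc1a2, the glial glutamate transporter, at 468 to 2463 CPM), and the 10 oligodendrocyte lineage markers to 127 to 330 CPM (Mbp at 45.0 to 108 CPM; Mag had no count). The 8 microglia markers summed to 2.51 to 20.2 CPM (C1qa at 0 to 8.59 CPM), the 8 endothelial and mural markers to 9.73 to 45.4 CPM (Rgs5 at 5.15 to 31.5 CPM) and the 8 proliferation and progenitor markers to 35.7 to 209.6 CPM (Nes at 32.2 to 200.3 CPM). In these bulk cultures, fewer cells of a type and less RNA per cell cannot be told apart.

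The 6 genes were present in every library at different depths. Levels between genes are compared as CPM per kb of the longest coding transcript, a level and not a difference. In WT-Veh cells Sqle, which adds the oxygen to squalene, was at 83.5, Insig1 at 57.9, Cyp51, the lanosterol demethylase, at 46.5 and Fdft1, the squalene synthase, at 29.0 CPM per kb. Idi1, the isopentenyl diphosphate isomerase that acts before squalene, was at 7.57 and Lss, the lanosterol synthase, at 4.32 CPM per kb. The last 2 genes had 14 to 66 and 13 to 68 counts per library, against 72 to 617 for the other 4, so their values carry more counting error.

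Idi1 had 11.7, 15.3 and 38.0 CPM in the WT-Veh cultures of replicates 1, 2 and 3, against 11.4, 6.87 and 13.7 CPM in WT-Topot. In the cKO cultures it had 8.99, 7.56 and 18.04 CPM with vehicle and 9.56, 4.65 and 19.2 CPM with topotecan. The groups overlapped, and WT-Veh replicate 3 stood above the other 11 libraries.

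Fdft1 had 69.9, 67.9 and 110.6 CPM in WT-Veh and 63.7, 37.5 and 37.7 CPM in WT-Topot. It had 52.4, 40.5 and 77.7 CPM in Top1 cKO-Veh and 47.0, 23.9 and 83.5 CPM in Top1 cKO-Topot. All WT-Topot libraries lay below all WT-Veh libraries, replicate 1 by a small margin, while the cKO groups overlapped with WT-Veh through their replicate 3.

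Sqle had 180.5, 216.5 and 293.7 CPM in WT-Veh and 173.9, 99.0 and 113.5 CPM in WT-Topot. With CRE it had 151.7, 94.8 and 192.9 CPM after vehicle and 106.7, 61.1 and 171.4 CPM after topotecan. Sqle was lower than in WT-Veh in all libraries of both Topot groups, and overlapped with it in Top1 cKO-Veh through replicate 3.

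Lss had 19.9, 21.0 and 19.6 CPM in WT-Veh and 12.4, 9.73 and 11.99 CPM in WT-Topot. It had 17.2, 11.2 and 6.51 CPM in Top1 cKO-Veh and 15.1, 10.3 and 19.2 CPM in Top1 cKO-Topot. Its WT-Veh libraries were close together and above all 9 others, by a small margin over Top1 cKO-Topot replicate 3.

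Cyp51 had 143.4, 177.9 and 227.5 CPM in WT-Veh and 88.5, 72.4 and 74.5 CPM in WT-Topot. The cKO cultures had 115.0, 77.6 and 140.8 CPM with vehicle and 79.3, 64.1 and 146.9 CPM with topotecan. Both WT-Topot and Top1 cKO-Veh libraries lay below all WT-Veh libraries, and those of Top1 cKO-Topot overlapped with them through replicate 3.

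Insig1, whose protein retains the SCAP-SREBP2 complex, had 117.0, 163.0 and 179.7 CPM in WT-Veh and 88.1, 73.6 and 51.4 CPM in WT-Topot. It had 109.1, 86.3 and 141.8 CPM in Top1 cKO-Veh and 94.4, 51.1 and 129.8 CPM in Top1 cKO-Topot. WT-Topot lay below WT-Veh in all libraries, and the cKO groups overlapped with WT-Veh.

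**Figure D1:**
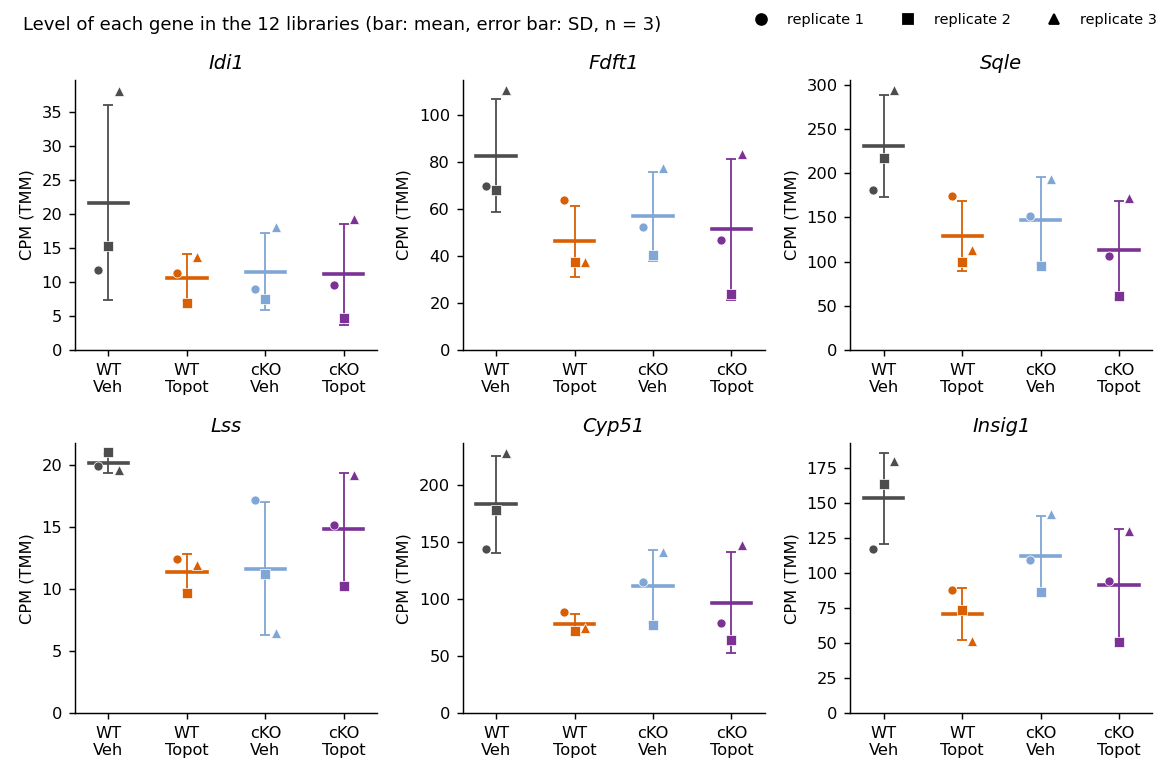
TMM-scaled CPM of the 6 genes (y axis, 1 panel per gene) in the 12 libraries by group (x axis). Points are single cultures with their replicate number as symbol, bars are means and error bars SDs of 3 cultures. The mean of WT-Veh was the highest for all 6 genes, and replicate 2 was the lowest Top1 cKO-Topot culture for each.

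Ordered by group mean, WT-Veh was the highest for all 6 genes. Next came Top1 cKO-Veh for 5 genes and Top1 cKO-Topot for Lss. The lowest mean was that of WT-Topot for 5 genes and of Top1 cKO-Topot for Sqle (113.1 ± 55.4 CPM, SD, n = 3, against 128.8 ± 39.7 CPM in WT-Topot). Without a block for the replicate number, the second group in the order did not differ from WT-Veh at an FDR of 0.01 for any of the 6, nor did any 2 neighbours among the lower 3 groups.

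To determine how topotecan affected the genes in cells with intact Top1, WT-Topot was compared with WT-Veh. Cyp51 and Insig1 fell. Cyp51 averaged 78.5 ± 8.73 CPM (SD, n = 3) against 182.9 ± 42.3 CPM (log2 fold change -1.21 ± 0.20 SE, FDR = 0.000752 by edgeR's quasi-likelihood test over all genes). Insig1 averaged 71.0 ± 18.5 against 153.3 ± 32.5 CPM (-1.10 ± 0.22, FDR = 0.00437). The other 4 genes had log2 fold changes between -0.99 and -0.82 and did not pass: Idi1 -0.99 ± 0.41 (FDR = 0.249), Fdft1 -0.82 ± 0.25 (FDR = 0.0716), Sqle -0.83 ± 0.23 (FDR = 0.0408) and Lss -0.82 ± 0.29 (FDR = 0.143). Thus 2 of 6 were called lower, where 2.04% of all 23893 genes were, and the median of the 6 was -0.91 beside 0.03 over the 13720 genes that averaged 1 CPM or more. Of those spanning 100 kb or less, 1.12% were called lower. In 5 of the 6 genes all 3 WT-Topot libraries lay below all 3 WT-Veh libraries, which 13.2% of genes with at least 1 CPM did. All 6 were lower in each of the 3 same-numbered pairs of cultures, as were 24.1% of genes.

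With the replicate number as a block, 4 of the 6 fell (block FDR = 1.42e-06 for Sqle, 0.000171 for Fdft1, 1.9e-11 for Cyp51 and 5.74e-09 for Insig1), where 5% of all genes were called lower. Idi1 (block FDR = 0.013) and Lss (block FDR = 0.0166) did not pass. Cyp51 stayed past the threshold in every alternative run, with FDRs up to 0.00718. The call of Insig1 was lost without WT-Topot replicate 3 (FDR = 0.0241), after a filter on low counts (FDR = 0.0134) and in a fit to all 12 libraries (FDR = 0.0217). Without WT-Topot replicate 1, whose pair differences were the smallest for all 6 genes, Fdft1 (FDR = 0.0054) and Sqle (FDR = 0.00189) were called too, and Sqle also without WT-Veh replicate 1 (FDR = 0.00264).

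Without WT-Veh replicate 3 the log2 fold change of Idi1 was -0.34 here, and it was -0.26 after deletion alone and -0.27 with deletion and topotecan together.

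The difference between same-numbered cultures varied with the replicate. For Sqle it was -0.05, -1.12 and -1.36 on the log2(CPM + 1) scale in replicates 1, 2 and 3, and for Fdft1 -0.13, -0.84 and -1.53. For Insig1 it was -0.41, -1.14 and -1.79, and for Cyp51 -0.69, -1.29 and -1.597. Idi1 differed by -0.04, -1.05 and -1.41, while Lss differed by -0.64, -1.04 and -0.66. Replicate 1 thus gave the smallest difference for each gene, with Lss close to that in replicate 3. Markers of several cell types moved in the same comparison. Of the astrocyte markers, the sum was 2441 to 5055 CPM in WT-Veh and 1183 to 2021 CPM in WT-Topot, 9 of the 12 had negative log2 fold changes (median -0.96), and Gfap (-2.54), Slc1a3 and Slc1a2 (-1.39) fell. The fall of astrocyte markers was about as large in the pair of replicate 1 (Slc1a2 -1.53, -1.38 and -1.24 in replicates 1, 2 and 3) as in the others. Nes, a neural progenitor gene, rose (1.22, FDR = 0.00167). It was the only gene called of the 8 proliferation and progenitor markers, of which 4 had positive and 4 negative log2 fold changes (median 0.16). Rbfox3, a nuclear marker of mature neurons, fell (-0.96, FDR = 0.00209), while 6 of the 12 neuron markers were negative and 6 positive (median 0.01). With the block, Olig1 rose (1.38) and Mbp fell (-0.59). Of the neuron markers, 4 fell with the block, Rbfox3 and Gad1 (-0.98) among them, and 2 rose. The study reports that topotecan lowers the expression of long genes. Rbfox3 spans 422 kb, Slc1a2 132 kb and Mbp 110 kb, while Gfap, Slc1a3 and Gad1 span 13.6, 76.6 and 48.9 kb. The part of these cell types and of gene length in the result was not tested.

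Deletion alone was examined by comparing Top1 cKO-Veh with WT-Veh. All 6 genes had negative log2 fold changes, none of which passed without the block. The values were -0.92 ± 0.44 for Idi1, -0.55 ± 0.26 for Fdft1, -0.65 ± 0.25 for Sqle, -0.78 ± 0.34 for Lss, -0.72 ± 0.24 for Cyp51 and -0.45 ± 0.22 for Insig1 (SE, adjusted p of 0.241 to 0.616, edgeR). The count of 0 called of 6, beside 0.126% of all genes called lower, was also 0 with DESeq2, and 3 of the 6 had an unadjusted p under 0.05. With the replicate block, 3 fell: Sqle (-0.68 ± 0.12, block FDR = 2.9e-06), Cyp51 (-0.74 ± 0.13, block FDR = 1.45e-06) and Fdft1 (-0.56 ± 0.16, block FDR = 0.00733), where 2.95% of genes were called lower. Insig1 had a block FDR of 0.0109, Idi1 of 0.0167 and Lss of 0.0265. The median of the 6 was -0.69, beside 0.00 over genes with at least 1 CPM. Of those 13720 genes, 1051 were lower and 897 higher at an unadjusted p under 0.05 (edgeR without the block).

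Each of the 6 genes was lower in Top1 cKO-Veh than in WT-Veh in every same-numbered pair, as were 22.8% of genes with at least 1 CPM, whereas groups without overlap were seen for Cyp51 and Lss alone among the 6, and for 10.3% of genes. The pair differences of Cyp51 were -0.32, -1.19 and -0.69 in replicates 1, 2 and 3, and those of Insig1 -0.10, -0.91 and -0.34. Replicate 1 again gave the smallest difference for all 6 genes. The astrocyte markers summed to 2769 to 6399 CPM in Top1 cKO-Veh, higher than WT-Veh in every pair. Of the 12, 7 had positive and 5 negative log2 fold changes (median 0.05). Slc1a2, the largest part of the sum (mean 2063 of 4390 CPM in Top1 cKO-Veh), was higher with the block (0.42, block FDR = 4.04e-05). The part of the astrocyte markers in this result was not tested. The comparison shares its WT-Veh libraries with the one before, so the values of both rest on the same control cultures.

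Deletion and topotecan together were compared with WT-Veh next. In Top1 cKO-Topot cells the 6 genes had log2 fold changes of -0.92 ± 0.46 for Idi1, -0.67 ± 0.32 for Fdft1, -1.005 ± 0.27 for Sqle, -0.43 ± 0.31 for Lss, -0.90 ± 0.26 for Cyp51 and -0.72 ± 0.26 for Insig1 (SE). None of the 6 was called at an FDR of 0.01 without the block (FDR = 0.044 for Sqle and 0.058 for Cyp51 by edgeR, 0 called with DESeq2, 4 with an unadjusted p under 0.05), where 1.21% of all genes were called lower. With the block, Sqle, Cyp51, Fdft1 and Insig1 fell (block FDRs of 2.3e-06, 9.49e-06, 0.00252 and 0.00141), where 4.02% of genes were. The median of the 6 was -0.81, beside 0.02 over genes with at least 1 CPM. Of those 13720 genes, 1626 were lower and 1431 higher at an unadjusted p under 0.05 (edgeR without the block).

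All 6 genes were lower than in WT-Veh in each pair of cultures, as were 26% of genes with at least 1 CPM, and Sqle and Lss had groups without overlap, as did 14.5% of genes. Top1 cKO-Topot replicate 3 was the highest of its group for all 6 genes and replicate 2 the lowest. Without replicate 3 the same 4 genes were called as with the block (FDR = 3.52e-05 for Sqle, 8.9e-05 for Cyp51, 0.00402 for Fdft1 and 0.00463 for Insig1), and without WT-Veh replicate 1 Sqle and Cyp51 were called. The astrocyte markers summed to 1740 to 3285 CPM in Top1 cKO-Topot, 10 of 12 had negative log2 fold changes against WT-Veh (median -0.61), and 5 fell with the block. Their part in this result was not tested.

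**Figure D2:**
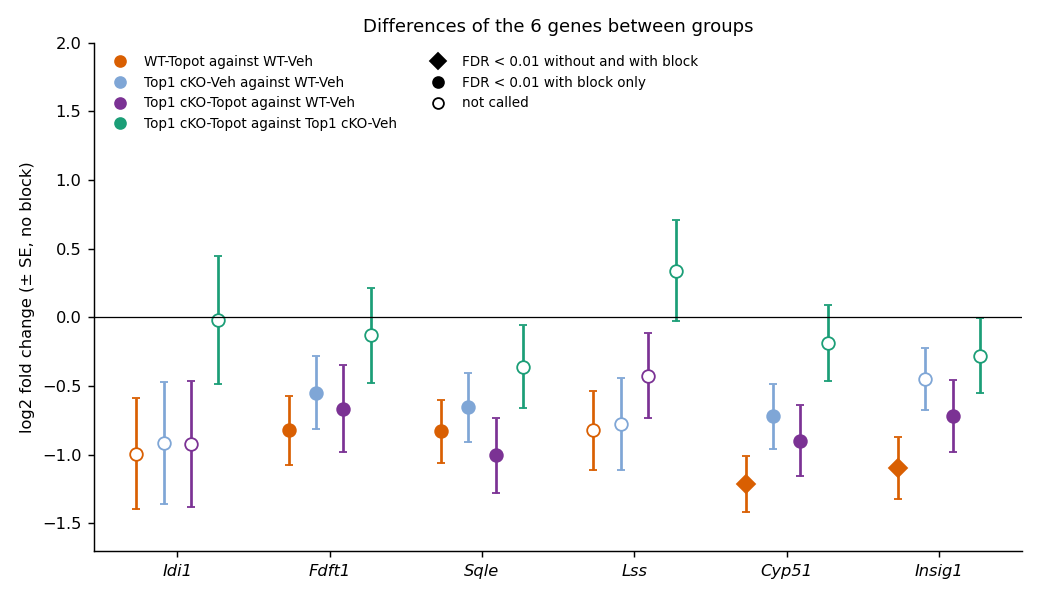
Log2 fold changes (y axis) of the 6 genes (x axis) in 4 comparisons of groups, from edgeR fits without a block, with SEs. Diamonds mark genes past an FDR of 0.01 without the block, filled circles those past it with the replicate block, and open circles neither. The 3 comparisons with WT-Veh lie below 0 for all 6 genes, and the comparison of topotecan with vehicle in Top1 cKO cells runs from -0.36 (Sqle) to 0.34 (Lss).

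Whether topotecan had an effect on these genes in cultures given CRE was read from Top1 cKO-Topot against Top1 cKO-Veh. These cultures are not free of Top1, since non-neuronal cells and a minority of neurons keep it. Top1 averaged 33.7 CPM in Top1 cKO-Veh and 31.7 CPM in Top1 cKO-Topot, against 134.8 CPM in WT-Veh. None of the 6 was called, without the block, with it or with DESeq2, and 0 of 6 had an unadjusted p under 0.05. The log2 fold changes were -0.02 ± 0.47 for Idi1, -0.13 ± 0.35 for Fdft1, -0.36 ± 0.30 for Sqle, 0.34 ± 0.37 for Lss, -0.19 ± 0.28 for Cyp51 and -0.28 ± 0.27 for Insig1 (SE). Calls were rare for all genes here, with 0.00837% called lower without and 1.74% with the block. Of 13720 genes with at least 1 CPM, 591 were lower and 348 higher at an unadjusted p under 0.05 (edgeR without the block). The smallest block FDR was that of Sqle (-0.42 ± 0.12, block FDR = 0.012), which was lower in all 3 pairs (-0.50, -0.63 and -0.17), as was Insig1 (-0.21, -0.74 and -0.13). Lss differed by -0.17, -0.11 and 1.43, so that its positive value came from replicate 3, where its Top1 cKO-Veh library had 13 counts. Of the astrocyte markers, all 12 had negative log2 fold changes (median -0.77), and 6 fell with the block, Gfap (-1.43) and Slc1a2 (-0.61) among them. The median of the 6 cholesterol genes in this comparison was -0.16. The part of the astrocyte markers in these values was not tested.

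The effect of topotecan was next compared between the genotypes by the interaction term, fitted on all 12 libraries. The interaction is the log2 fold change of topotecan in Top1 cKO cells minus that in WT cells, and it was positive for all 6 genes, with values of 0.97 ± 0.69 for Idi1, 0.69 ± 0.48 for Fdft1, 0.46 ± 0.43 for Sqle, 1.16 ± 0.46 for Lss, 1.02 ± 0.37 for Cyp51 and 0.81 ± 0.39 for Insig1 (SE). None passed without the block (adjusted p of 0.313 to 1, edgeR; 0 with DESeq2; 2 with an unadjusted p under 0.05), where 0.398% of all genes had a positive call. With the block, that of Cyp51 passed (0.96 ± 0.22, block FDR = 0.00298), where 2.44% of genes did. The median of the 6 was 0.89, beside -0.03 over genes with at least 1 CPM. Of those 13720 genes, 1025 had a positive and 816 a negative interaction at an unadjusted p under 0.05 (edgeR without the block). Of the 12 astrocyte markers, 7 had a positive and 5 a negative interaction (median 0.12), and none was called without the block. With the block, the interactions of Gfap (1.11) and Slc1a2 (0.75) were called, both positive.

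The 3 manipulated groups were also compared with each other. Top1 cKO-Topot and WT-Topot, which both received the drug, did not differ at an FDR of 0.01 in any of the 6 genes with or without the block, with DESeq2 or in any other alternative run (log2 fold changes from -0.20 ± 0.26 for Sqle to 0.37 ± 0.32 for Lss, 0 with an unadjusted p under 0.05), where 1.03% of all genes were called lower. In WT-Topot against Top1 cKO-Veh, all 6 had negative log2 fold changes, none of which passed without the block (1.23% of all genes were called lower; 0 of the 6 with DESeq2; 2 with an unadjusted p under 0.05). Insig1 was lower in WT-Topot with the block (-0.63 ± 0.16, block FDR = 0.00377), where 4.8% of genes were, and in all 3 pairs (-0.31, -0.23 and -1.45). Cyp51 differed by -0.45 ± 0.14 (block FDR = 0.022). Of 13720 genes with at least 1 CPM, 1629 were lower and 1586 higher in Top1 cKO-Topot than in WT-Topot at an unadjusted p under 0.05 (edgeR). In WT-Topot against Top1 cKO-Veh, 1546 were lower and 1211 higher.

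A further 13 genes of the pathway were examined in the same fits. In WT-Topot cells 4 of the 13 fell, where 2.04% of all genes were called lower, and 11 of the 13 had negative log2 fold changes (median -0.63). These 4 were Pmvk (-1.13 ± 0.22, FDR = 0.00357) and Mvd (-1.65 ± 0.36, FDR = 0.00777), which act on phosphorylated mevalonate, and Sc4mol (-1.34 ± 0.23, FDR = 0.000991) and Hsd17b7 (-1.04 ± 0.21, FDR = 0.00342), which act after lanosterol. The calls of Pmvk, Mvd and Hsd17b7 were lost without WT-Topot replicate 2 or 3 (FDR = 0.0103 to 0.032), those of Mvd, Sc4mol and Hsd17b7 in the fit to all 12 libraries (FDR = 0.0114 to 0.0494), and that of Mvd also after a filter on low counts (FDR = 0.0243) and with scaling by total counts (FDR = 0.0141). DESeq2 called 5 of the 13, the fifth being Nsdhl (-1.50 ± 0.34, FDR = 0.0112 by edgeR and 0.00281 by DESeq2), which was also called with RLE scaling (FDR = 0.00951) and without WT-Veh replicate 1 or 2 or WT-Topot replicate 1. With the block 6 of the 13 fell, where 5% of all genes were called lower, and 1 rose. Nsdhl (-1.48) and Acat2 (-0.62) joined those that fell. Ebp, the sterol isomerase, rose (1.09, block FDR = 0.00146).

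In Top1 cKO-Veh cells none of the 13 was called without the block by edgeR, where 0.126% of all genes were called lower. DESeq2 called 1, Mvd (FDR = 0.00885). By edgeR 7 had an unadjusted p under 0.05, all lower, as had 1051 of 13720 genes with at least 1 CPM. With the block 5 fell, where 2.95% of all genes were called lower: Acat2, Pmvk, Mvd, Sc4mol and Nsdhl. Without Top1 cKO-Veh replicate 3, Sc4mol was called (FDR = 0.00634). Sc4mol had 179.6, 231.4 and 347.9 CPM in WT-Veh and 118.5, 56.3 and 153.8 CPM in Top1 cKO-Veh (-1.21 ± 0.31, FDR = 0.0981; block FDR = 4.35e-20). Its Top1 cKO-Veh libraries all lay below those of WT-Veh.

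In Top1 cKO-Topot against WT-Veh, 3 of the 13 fell, where 1.21% of all genes were called lower: Nsdhl (-2.04 ± 0.34, FDR = 0.000793), Pmvk (-1.18 ± 0.24, FDR = 0.00641) and Mvd (-2.12 ± 0.45, FDR = 0.00772). Nsdhl, which encodes a dehydrogenase that acts in the removal of the methyl groups at carbon 4, had 29.3, 31.6 and 53.6 CPM in WT-Veh and 7.57, 6.64 and 13.1 CPM in Top1 cKO-Topot, groups far apart. The call of Mvd was lost with total counts (FDR = 0.0122) and in the fit to all 12 libraries (FDR = 0.0129). Without Top1 cKO-Topot replicate 2 none of the 13 was called, without WT-Veh replicate 2 only Nsdhl was, and after the filter on low counts only Nsdhl was. Without WT-Veh replicate 1 or without Top1 cKO-Topot replicate 3 the count was 5. With the block 7 of the 13 fell, where 4.02% of all genes were called lower. Tm7sf2, a sterol reductase gene, fell between Top1 cKO-Topot and WT-Topot (3.19, 2.99 and 10.9 against 25.1, 21.2 and 21.0 CPM; -2.02 ± 0.39, FDR = 0.00194). Its call was lost without Top1 cKO-Topot replicate 2 (FDR = 0.021), after the filter (FDR = 0.0145) and in the fit to all 12 libraries (FDR = 0.0174). In WT-Topot against WT-Veh, Tm7sf2 had a log2 fold change of 0.20 ± 0.36 and did not pass.

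**Figure D3:**
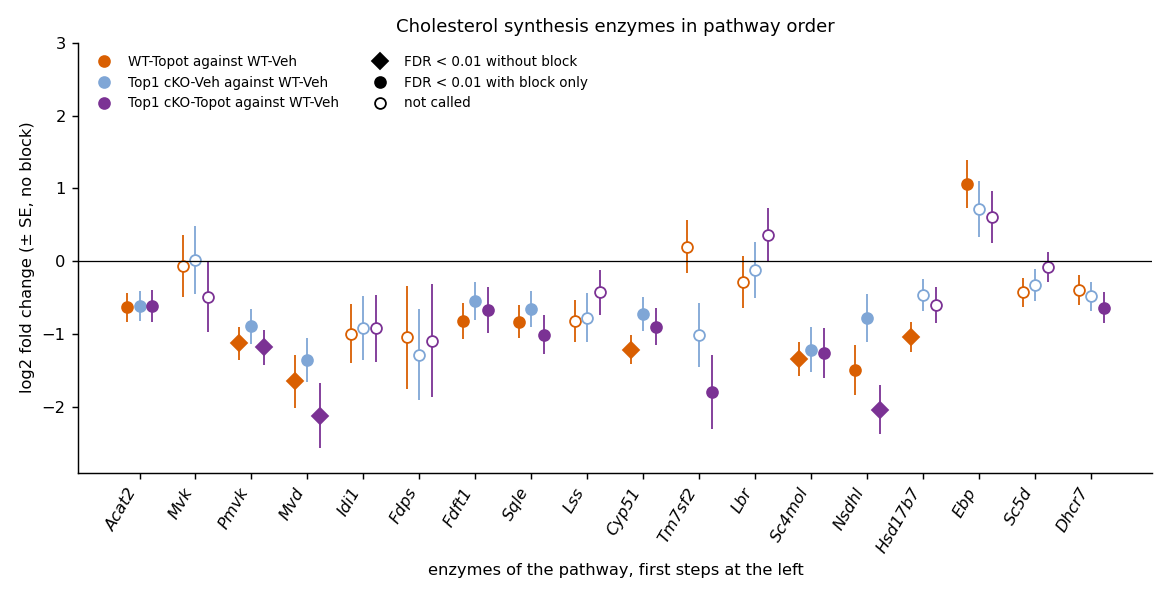
Log2 fold changes against WT-Veh with SEs (y axis) of the 5 enzyme genes among the 6 and of 13 other enzyme genes, in the order in which their enzymes act (x axis), for the 3 manipulated groups. Diamonds mark an FDR under 0.01 without the block and filled circles with it only. Most points lie below 0 from Acat2 to Dhcr7, and those of Ebp lie above it in all 3 groups.

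With the replicate block, topotecan acted differently in the genotypes on Sc4mol (interaction 1.18, block FDR = 0.00333) among these 13 genes. With the block, 2.44% of all genes had a positive call. Without the block Sc4mol did not pass (FDR = 0.472), and 0 of the 13 were called by edgeR or DESeq2. At an unadjusted p under 0.05 by edgeR, 5 were positive and 1 negative. Of 13720 genes with at least 1 CPM, 1025 were positive and 816 negative at that p. Topotecan in cKO cells against vehicle gave 1 call among the 13, with the block only, that of Nsdhl (-1.26, block FDR = 6.08e-05), where 1.74% of all genes were called lower.

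Genes of the sterol sensor showed small differences. Srebf2, which encodes SREBP2 itself, had 228.2, 234.9 and 197.5 CPM in WT-Veh and 199.4, 121.6 and 110.9 CPM in WT-Topot (-0.61 ± 0.21, FDR = 0.141), and fell with the block (block FDR = 9.49e-05) or without WT-Topot replicate 1 (FDR = 0.00876). Only WT-Topot replicate 1 overlapped with WT-Veh. Scap, the escort of SREBPs, had 93.9, 73.6 and 88.7 CPM in WT-Veh and 127.0, 117.4 and 119.5 CPM in WT-Topot (0.51 ± 0.18, FDR = 0.16), and rose with the block (block FDR = 0.00596). Insig2, the relative of Insig1, differed by -0.50 ± 0.19 (FDR = 0.197; block FDR = 0.0193), and Srebf1 by 0.39 ± 0.28 (FDR = 0.72). None of these 4 passed an FDR of 0.01 in Top1 cKO-Veh or Top1 cKO-Topot against WT-Veh in any alternative run. Between the manipulated groups and with the block only, Srebf1 was higher with topotecan than with vehicle in cKO cells (0.81, block FDR = 7.76e-05), and of the Topot groups the cKO had more Insig2 (0.65, block FDR = 0.000602). Of the 9 regulators in all, none was called without the block in any comparison with WT-Veh.

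Uptake was read from 11 genes of lipoprotein receptors and intracellular sterol transport. None was called in WT-Topot against WT-Veh with or without the block or with DESeq2 (median -0.37). An unadjusted p under 0.05 by edgeR was seen for 2, both lower, and for 1609 lower genes of the 13720 with at least 1 CPM. Stard4, a cytosolic sterol carrier, had 65.5, 64.9 and 141.1 CPM in WT-Veh and 67.7, 47.2 and 58.2 CPM in WT-Topot (-0.63 ± 0.27, FDR = 0.279; block FDR = 0.0142). It had 68.0, 41.0 and 59.6 CPM in Top1 cKO-Veh and 49.4, 22.3 and 78.7 CPM in Top1 cKO-Topot, and fell with the block in both (-0.61 and -0.87, block FDRs of 0.00249 and 0.000492). All groups overlapped with WT-Veh, in which replicate 3 stood above the other libraries. Lrp1, an endocytic receptor that binds APOE, had 210.7, 219.6 and 94.5 CPM in WT-Veh and 237.8, 365.3 and 172.7 CPM in Top1 cKO-Topot, and rose with the block only (0.60, block FDR = 0.00148). Vldlr, another lipoprotein receptor, differed by -0.09 to -0.04 in the 3 comparisons with WT-Veh.

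The 6 genes varied together across cultures. Each gene was centred on its mean log2(CPM + 1) over the 12 libraries and the 6 were averaged. This mean level was 0.30, 0.54 and 1.00 in WT-Veh replicates 1, 2 and 3 and -0.03, -0.54 and -0.39 in WT-Topot. It was 0.03, -0.43 and 0.23 in Top1 cKO-Veh and -0.22, -0.94 and 0.46 in Top1 cKO-Topot. Replicate 3 was the highest for 5 of 6 genes in WT-Veh, for 5 in Top1 cKO-Veh and for 6 in Top1 cKO-Topot, but for 1 in WT-Topot, where replicate 1 was the highest for 5. The sum of astrocyte markers, in contrast, was lowest in replicate 3 and highest in replicate 1 in all 4 groups. What sets the replicate numbers apart is not given in the labels.

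**Figure D4:**
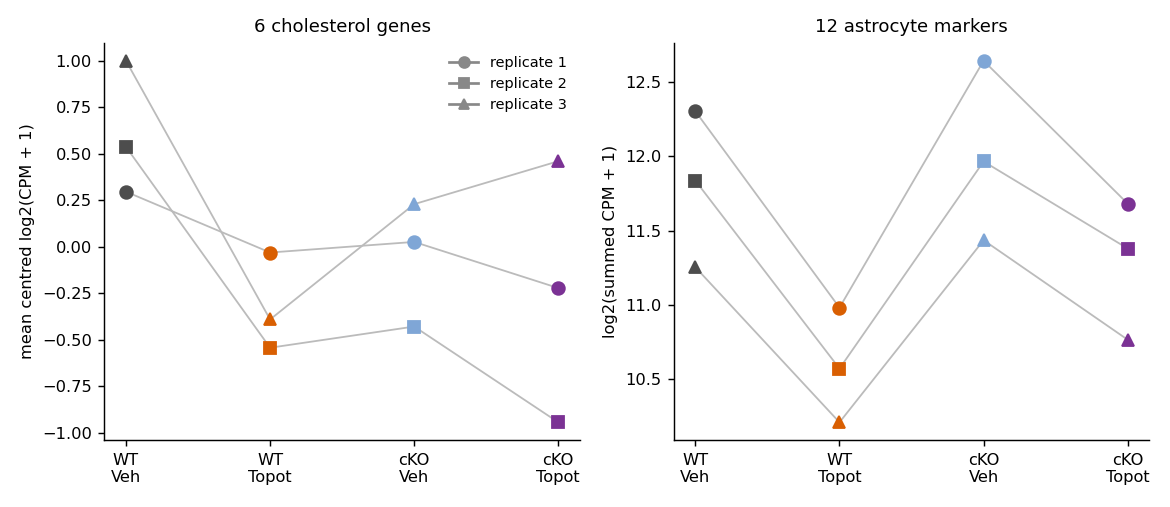
Mean centred log2(CPM + 1) of the 6 cholesterol genes (left) and log2 of the summed CPM of 12 astrocyte markers plus 1 (right) in each of the 12 libraries, with lines joining cultures of the same replicate number across the 4 groups on the x axis. The cholesterol genes range from 1.00 in WT-Veh replicate 3 to -0.94 in Top1 cKO-Topot replicate 2, and the astrocyte markers keep the same order of replicates in every group.

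Pearson correlations between pairs of these genes over the 12 libraries were 0.74 to 0.96 for the 10 pairs without Lss, and 0.71 to 0.97 once each group's mean was removed. The 5 pairs with Lss had 0.38 to 0.56, and 0.11 to 0.28 within groups. Among 13711 other genes that averaged 1 CPM or more, those whose log2(CPM + 1) was most like the mean level of the 6 over the 12 libraries were Sc4mol (r = 0.975), Tmem121 (0.957), Acat2 (0.937), Nasp (0.934) and Actr3b (0.931), so that 2 of the first 5 encode enzymes of the same pathway. Tmem121, a membrane protein gene, had 41.8, 39.0 and 45.5 CPM in WT-Veh and 34.2, 24.0 and 28.3 CPM in WT-Topot. Nasp, a histone chaperone gene, had 33.6, 30.2 and 40.9 CPM in WT-Veh and 24.8, 20.3 and 15.0 CPM in WT-Topot. Actr3b, an actin-related gene, had 89.8, 90.3 and 123.2 CPM in WT-Veh and 56.0, 42.9 and 57.0 CPM in WT-Topot. Of the 13 further pathway genes, Hsd17b7 came at rank 12, Mvd at rank 21, Nsdhl at rank 39 and Pmvk at rank 54, whereas Fdps, Sc5d, Mvk, Lbr, Tm7sf2 and Dhcr7 came at ranks 222 to 1579. Ebp had the opposite sign (r = -0.27). Stard4 came at rank 11. These correlations describe 12 libraries that share groups, replicate numbers and depth, and they carry no test.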

How the data were processed

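RNA-seq was performed on polyA RNA from 12 cortical cultures, with n = 3 per group taken from the sample labels. For the deposited values, the authors passed paired-end reads through TagDust, mapped them to mm9 by TopHat, discarded rRNA reads and gave raw counts over RefSeq exons per gene symbol, without normalization. The counting program, its use of strand and the software versions are not given in the sources used here, so reads of overlapping or near-identical genes may have gone to either symbol. Of 23893 genes, 5182 had no count, at 1730164 to 4583777 counts per library.

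From the deposited counts, TMM-scaled CPM were computed with edgeR 4.0.16 (R 4.3.3). Pairs of groups were compared by its quasi-likelihood test over their 6 libraries without a filter, and the interaction over all 12. Benjamini-Hochberg adjustment ran over all genes (FDR under 0.01), and SEs are edgeR's log2 fold change divided by the root of its F. Replicate numbers are shared by the groups. Deviations from group means correlated at 0.261 to 0.484 for 18 same-numbered pairs of libraries and at -0.382 to -0.049 in the 36 others (13718 genes). Deviations within a group cancel out, so the second range tends to be negative where the first is positive and is not separate evidence. From these same data the numbers were taken to pair the cultures, and a fit blocked on the number is reported wherever a call depends on it. Adjusted p-values of this fit are written as block FDR. The study describes n as cultures, but what a replicate number stands for is not given, so p-values apply to these cultures only. In edgeR, the variance of a gene is drawn towards that of other genes, so p-values do not measure its own spread between cultures alone. For Sqle in WT-Topot against WT-Veh, the pair differences of -0.05, -1.12 and -1.36 stood beside a block SE of 0.14. Alternatives were DESeq2 1.42.0, its median-ratio size factors (RLE) or total counts as scaling, a filter on low counts (filterByExpr), 1 fit to all 12 libraries, an FDR of 0.1 and leaving out each library. The edgeR fit, with and without the block, was tested on simulated counts for WT-Topot against WT-Veh and for the interaction. The other comparisons and the alternatives were not tested in this way.

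The 7 genes and the lists (13 other synthesis genes, 11 of uptake and transport, 9 SREBP regulators, 13 of fatty acid synthesis, 12 of efflux, storage and turnover, 9 of the isoprenoid branch and 6 marker lists) were chosen with earlier results of these data known. Some further genes are not reported here and were left out of the lists and ranks. Besides the 7, genes named were Srebf2, Srebf1, Scap and Insig2, list genes past the FDR in at least 1 comparison, the 5 genes most like the 6 over the libraries, Top1, and the marker with the most counts in each list. Others (Gfap, Slc1a3, Stard4, Vldlr, Lrp1, Ebp, Acat2 in the fits, Scd1, Scd2, Fasn, Fads1, Thrsp, Abca7, Rbfox3, Olig1, Gad1, Ctsb, 4930483K19Rik, Idi2, Mag) were named after their values were seen. Positions are from GENCODE vM1 and promoters from RefSeq.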

Additional observations from a re-analysis of the deposited data

Results flagged for a closer look

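The effect of topotecan differed between the genotypes in 2 cholesterol synthesis genes by the interaction term with the replicate block. The interaction of Cyp51 was 0.955 (block FDR = 0.00298) and that of Sc4mol 1.178 (block FDR = 0.00333), each a log2 fold change of topotecan in Top1 cKO cells minus that in WT cells. In both genes the fall with topotecan in WT cells (-1.21 for Cyp51 and -1.34 for Sc4mol) stood beside smaller differences in Top1 cKO cells that did not pass the test (-0.19 and -0.05). Without the block neither interaction passed (edgeR FDR = 0.313 and 0.472), and DESeq2 called 0 of the 6 and 0 of the 13. Groups of 3 are too small for a test of single outlying libraries.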

How the results depend on the processing

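Leaving out 1 library at a time moved the number of the 6 genes called from 2 to between 1 and 4 in WT-Topot against WT-Veh and from 0 to between 0 and 4 in Top1 cKO-Topot against WT-Veh, and left it at 0 in the other 5 comparisons. For the 13 other synthesis genes the same ranges were 1 to 5 (4 with all libraries), 0 to 1 in Top1 cKO-Veh against WT-Veh (0), 0 to 1 in Top1 cKO-Topot against WT-Topot (1), 0 to 5 in Top1 cKO-Topot against WT-Veh (3) and 0 to 1 in WT-Topot against Top1 cKO-Veh (0). With the replicate block, which pairs the cultures by number, 4 of the 6 and 7 of the 13 were called when WT-Topot was set against WT-Veh, 3 and 5 for Top1 cKO-Veh, 4 and 7 for Top1 cKO-Topot, 1 and 1 for WT-Topot set against Top1 cKO-Veh, and 1 and 1 for the interaction. The block gave 1 of the 13 for topotecan in Top1 cKO cells, and changed no other of these counts. The filter on low counts left 1 of the 6 in WT-Topot, and 0 and 1 of the 13 in Top1 cKO-Topot against WT-Topot and WT-Veh. The fit to all 12 libraries left 1 of the 6 and 1 of the 13 in WT-Topot, and 0 of the 13 in Top1 cKO-Topot against WT-Topot. DESeq2 called 1 of the 13 in Top1 cKO-Veh against WT-Veh. An FDR of 0.1 gave 4 of the 6 and 7 of the 13 in WT-Topot, 2 and 5 in Top1 cKO-Topot against WT-Veh, and of the 13 it gave 2 for Top1 cKO-Veh and 1 when that group was the control of WT-Topot. The cause of these changes was not tested.

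Signs turned only where a difference was small and not called. Among the alternatives of scaling, filter, tool, block or pooled fit, they turned for Idi1 in Top1 cKO-Topot against WT-Topot (-0.054 with the block, -0.006 with total counts), for Idi1 (0.002) and Lss (0.037) in WT-Topot against Top1 cKO-Veh with total counts, and for Insig2 in Top1 cKO-Veh (0.004 with the block, 0.002 with DESeq2). With 1 library left out, the ranges that crossed 0 in Top1 cKO-Topot against Top1 cKO-Veh were -0.66 to 0.42 for Idi1, -0.66 to 0.22 for Fdft1, -0.62 to 0.044 for Cyp51 and -0.61 to 0.015 for Insig1. In Top1 cKO-Topot against WT-Topot they were -0.59 to 0.43 for Idi1, -0.40 to 0.48 for Fdft1, -0.63 to 0.10 for Sqle and -0.13 to 0.51 for Cyp51. In WT-Topot against Top1 cKO-Veh they were -0.33 to 0.35 for Idi1, -0.45 to 0.063 for Sqle and -0.31 to 0.30 for Lss. Against WT-Veh, Tm7sf2 ranged from -0.10 to 0.91 in WT-Topot, and Srebf1 from -0.53 to 0.13 and Insig2 from -0.034 to 0.048 in Top1 cKO-Veh. Scaling by total counts moved the median of expressed genes by at most 0.086 in any comparison. Lss and Idi1, at 13 to 68 counts per library, had SEs of 0.29 to 0.47 in the comparisons of 2 groups, against 0.20 to 0.35 for the other 4 genes.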

Other observations

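Fatty acid synthesis, which is driven by SREBP1 more than SREBP2, was examined in a list of 13 genes. Acaca, the acetyl-CoA carboxylase gene, had 45.4, 39.9 and 40.3 CPM in WT-Veh and 22.8, 18.3 and 19.3 CPM in WT-Topot, groups far apart (-1.05 ± 0.24, FDR = 0.00956, edgeR), although its call was lost without any 1 of 5 of the 6 libraries (FDR = 0.0115 to 0.0509) and with total counts (FDR = 0.0213). Acaca, which spans 272 kb, was the only gene of the 13 called in WT-Topot without the block (median -0.44), where 2.04% of all genes were called lower. The part of gene length was not tested. With the block Scd1 (-1.46), Scd2 and Fads1 fell too, where 5% of all genes were called lower. In Top1 cKO-Veh none of the 13 was called without the block by edgeR, and DESeq2 called 1, Fasn (FDR = 0.00957). At an unadjusted p under 0.05 by edgeR, 3 were lower and 1 higher, as were 1051 and 897 of 13720 genes with at least 1 CPM. With the block Fasn, the fatty acid synthase gene, fell (-0.80, block FDR = 1.97e-11), as did Acaca, Scd1 and Fads1, while Thrsp rose. Of all genes, 2.95% were called lower with the block.

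Apoe, which encodes the lipid carrier made mainly by astrocytes, was called among 12 genes of efflux, storage and turnover. Without the block no other gene of the 12 was called in WT-Topot or Top1 cKO-Topot against WT-Veh. Of all genes, 2.04% and 1.21% were called lower in these. In WT-Topot 5 of the 12 log2 fold changes were negative and 7 positive (median 0.07). With the block Abca7 fell there too (-0.79, block FDR = 0.00496), where 5% of all genes were called lower. Apoe had 2353, 869.1 and 962.4 CPM in WT-Veh and 730.2, 464.0 and 424.8 CPM in WT-Topot, without overlap (-1.36 ± 0.29, FDR = 0.00584, edgeR). In Top1 cKO-Topot it had 419.4, 434.4 and 180.1 CPM (-1.99 ± 0.32 against WT-Veh, FDR = 0.00059). These calls were lost with DESeq2 (FDR = 0.0643 and 0.0131) and after the filter on low counts (FDR = 0.035 and 0.0191), and the first also without WT-Topot replicate 2 or 3, with total counts and in the fit to all 12 libraries (FDR = 0.0104 to 0.0511). In Top1 cKO-Veh Apoe had 1363, 617.6 and 425.4 CPM, overlapping with WT-Veh (-0.79 ± 0.38, FDR = 0.591), and fell with the block (-0.81, block FDR = 9.25e-16) or without Top1 cKO-Veh replicate 1 (FDR = 0.0036). With the block, 2.95% of all genes were called lower there. The astrocyte marker sums given above were lower than in WT-Veh in every pair for both Topot groups and higher in every pair for Top1 cKO-Veh, where Apoe was lower in all 3 pairs. Their part in this was not tested. The 9 genes of the isoprenoid branch, which uses farnesyl diphosphate for ubiquinone, dolichol and protein prenylation, gave no call in any comparison with or without the block, none with an unadjusted p under 0.05 and medians of -0.08 to 0.07, and none with DESeq2.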
